A study of Drosophila melanogaster with 36 samples.

Results

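Gene expression in the thorax of 6-day-old flies was compared between flies expressing PABPN1-17ala in their muscles and control flies of the same age, on 12 of the 36 arrays of a transcriptome study of *Drosophila melanogaster*. The arrays were taken by their titles, 6 for PABPN1-17ala and 6 for control flies. The flies expressing PABPN1-17ala were UAS-PABPN1-17ala/+; Mhc-Gal4/+, in which the muscle driver Mhc-Gal4 turns on a mammalian PABPN1 with an expanded alanine tract, and the control flies were Mhc-Gal4/+. Both genotypes thus carry the driver, and the controls have no UAS transgene. Because the driver acts in muscle while the RNA comes from the whole thorax, transcripts of nerve, gut, cuticle and other cells of the thorax are also measured. The study sampled both genotypes at days 2, 6 and 11, from RNA extracts of 50 thoraxes made in triplicate. On each 2-colour array, thorax RNA was set against a common reference, a pool of control RNA at day 2, with the thorax RNA in Cy5 on replicates 1 to 3 and in Cy3 on replicates 4 to 6.

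PABPN1 is a nuclear protein that binds poly(A) tails and helps to control their length. Short expansions of its alanine tract cause oculopharyngeal muscular dystrophy (OPMD), a late-onset disease in which the protein aggregates in the nuclei of muscle fibres. Most of the fly thorax is flight muscle, a tissue packed with mitochondria that burns carbohydrate through glycolysis, the citric acid cycle and the respiratory chain. The proteasome, a barrel-shaped core protease capped by a regulatory particle, degrades proteins that carry ubiquitin.

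The deposited value of a gene on an array is a normalized log ratio, read here as log2 of thorax sample over common reference. The log base and the direction are not stated in the sources used here. The direction was taken first from GstD1, which is higher with PABPN1-17ala under this reading, as is the GstD1-GFP reporter of the study, and respiratory chain mRNAs, lower under it, were also lower in the study's RT-qPCR. With the opposite direction, every sign below would turn. On the 12 arrays the values ran from -4.29 to 3.70, 166 of them (0.1%) were empty and the array medians lay between -0.013 and 0.018. No 2 arrays held identical values. Over genes, arrays of the same group and dye correlated with r = 0.81 to 0.86 for PABPN1-17ala and 0.68 to 0.81 for control flies, and arrays of the same group and different dyes with 0.54 to 0.67 and 0.21 to 0.38, so the dyes were compared separately. The log2 fold change, PABPN1-17ala over control, was averaged over the dyes, and so was its SE, which is then an upper limit. A gene was called at a Benjamini-Hochberg adjusted p below 0.05, computed by limma from the larger p of both dyes. These p-values measure the spread between arrays of the same dye. With extracts made in triplicate, both dyes of a group probably measure the same extracts, so its 6 arrays are not 6 independent samples.

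Of 13791 genes tested, 129 (0.935%) rose and 92 (0.667%) fell in thoraxes expressing PABPN1-17ala at day 6, and 679 had an unadjusted p below 0.05. The largest rises were of the superoxide dismutase relative Rsod, the histone acetylation adaptor Ada2b and the spliceosomal RNA U6, each over 5-fold. The largest falls were of the glycolytic enzymes Eno and Gapdh1 and the ubiquitin-binding cofactor Npl4, each over 4-fold. The median fold change was 1.72 for genes that rose and 2.17 for genes that fell, and 26 genes rose and 61 fell by at least 2-fold. All 6 PABPN1-17ala arrays lay outside the control arrays of their dye for each of the 221 called genes; over all genes tested, they lay above them for 797 (5.78%) and below them for 636 (4.61%). The median log2 fold change of all genes tested was -0.01. Leaving out 1 array changed the number of fallen genes most, to 56 without PABPN1-17ala replicate 6 and to 61 without control replicate 5. In whole thoraxes, fewer cells of a type and less RNA per cell cannot be told apart.

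**Figure D1:**
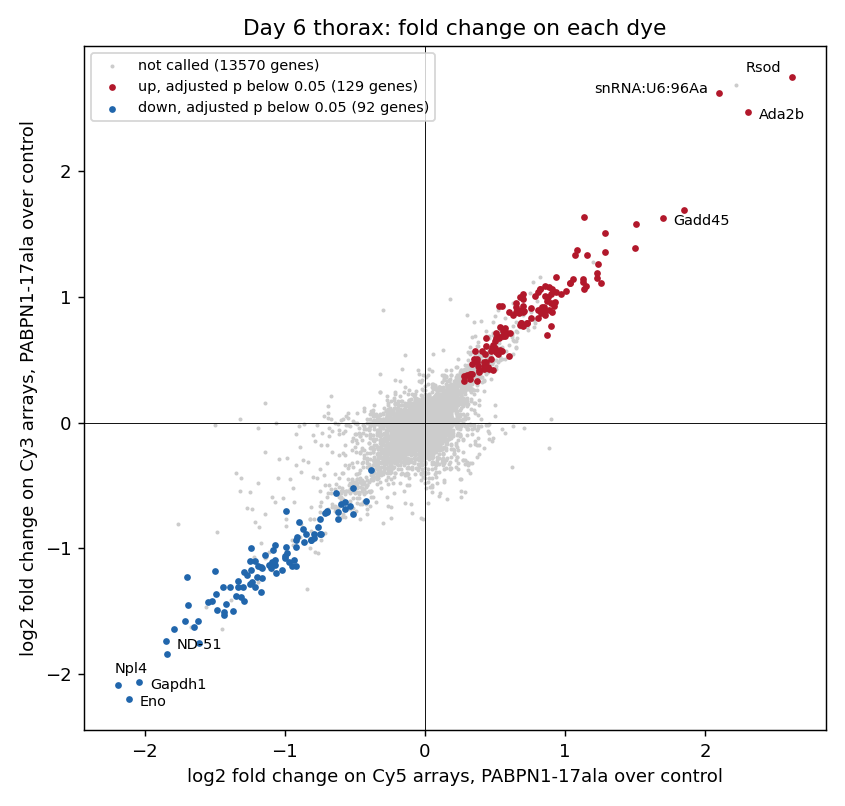
Log2 fold change of PABPN1-17ala over control at day 6 for each of the 13791 genes tested, on Cy5 arrays (horizontal axis) and on Cy3 arrays (vertical axis). Red points are the 129 genes that rose, blue points the 92 that fell and grey points the genes not called. Across genes, which are not independent replicates, both dyes correlated with r = 0.79.

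Rsod (CG31028), whose protein resembles copper-zinc superoxide dismutase, rose the most. Its log2 ratios were 2.09, 3.03 and 2.40 on Cy5 arrays and 2.79, 2.28 and 2.88 on Cy3 arrays with PABPN1-17ala, against -0.06, 0.01 and -0.28 on Cy5 arrays and -0.13, -0.25 and 0.08 on Cy3 arrays of control flies. All 6 PABPN1-17ala arrays lay over 2 log2 units above the highest control array, and control flies were near the level of the reference. The log2 fold change was 2.68 (SE 0.19, 6.42-fold, adjusted p = 2.48e-06 by limma). Ada2b (CG9638), which helps the SAGA complex acetylate histones, was nearly as high. It had log2 ratios of 2.27, 2.88, 2.29, 2.77, 2.77 and 3.02 on PABPN1-17ala replicates 1 to 6 and of 0.19, 0.18, 0.14, 0.19, 0.32 and 0.64 on control replicates 1 to 6. The groups were far apart, and the highest control value, on replicate 6, stood apart from the other controls. Ada2b rose by 2.39 (SE 0.14, 5.24-fold, adjusted p = 5.6e-07 by limma).

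snRNA:U6:96Aa (CR31379) is a copy of the U6 small nuclear RNA, a catalytic part of the spliceosome that is made by RNA polymerase III and normally carries no poly(A) tail, while the labelling kit named in the labels amplifies RNA from poly(A) tails. Its log2 ratios were 1.57, 2.84, 1.81, 3.05, 2.31 and 2.82 on PABPN1-17ala replicates 1 to 6 and -0.05, -0.03, -0.02, 0.04, 0.05 and 0.22 on control replicates 1 to 6. The PABPN1-17ala arrays were all far above the controls but were spread over more than 1 log2 unit. It rose 5.15-fold (log2 fold change 2.36, SE 0.30, adjusted p = 0.00563 by limma). Of the 11 small nuclear RNA genes tested it was the only one called, with a list median of 0.12; snRNA:U5:34A had 0.78 (adjusted p = 0.771), and near-identical copies of these RNAs may share a probe's signal. A 5.8S ribosomal RNA gene (CR40454), named after its values were seen, had a log2 fold change of 2.45 without being called (adjusted p = 0.0586 by limma), with all 6 PABPN1-17ala arrays above the controls.

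Gadd45 (CG11086), a growth arrest and DNA damage protein, had log2 ratios of 1.34, 1.89, 1.87, 1.60, 1.55 and 2.05 with PABPN1-17ala and -0.01, -0.04, 0.03, 0.10, 0.02 and 0.18 in control flies. The 2 sets of arrays did not overlap, and it rose 3.18-fold (log2 fold change 1.67, SE 0.25, adjusted p = 0.00173 by limma). Prp31 (CG6876), a splicing factor of the U4/U6 particle, had the smallest SE of the 15 genes that rose most, with 1.51, 1.41, 1.42, 1.39, 1.43 and 1.30 against -0.07, -0.07, -0.01, -0.08, -0.01 and 0.04. Its log2 fold change was 1.44 (SE 0.09, adjusted p = 1.54e-05). RPA1 (CG9633), the large subunit of the protein that coats single-stranded DNA, had 0.93, 1.43, 1.26, 1.29, 1.36 and 1.42 with PABPN1-17ala, against 0.13, 0.20, 0.08, -0.07, 0.03 and 0.11 in control flies. It rose 2.30-fold (adjusted p = 0.000309). CG15784 rose by 1.77 on the log2 scale, CG7627 by 1.55, CG18596 by 1.40, eIF6, which keeps new large ribosomal subunits apart from small ones, by 1.39, the JAK/STAT inhibitor Socs36E by 1.23 and the transcriptional coactivator mbf1 by 1.21, with adjusted p between 9.4e-05 and 0.00388.

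**Figure D2:**
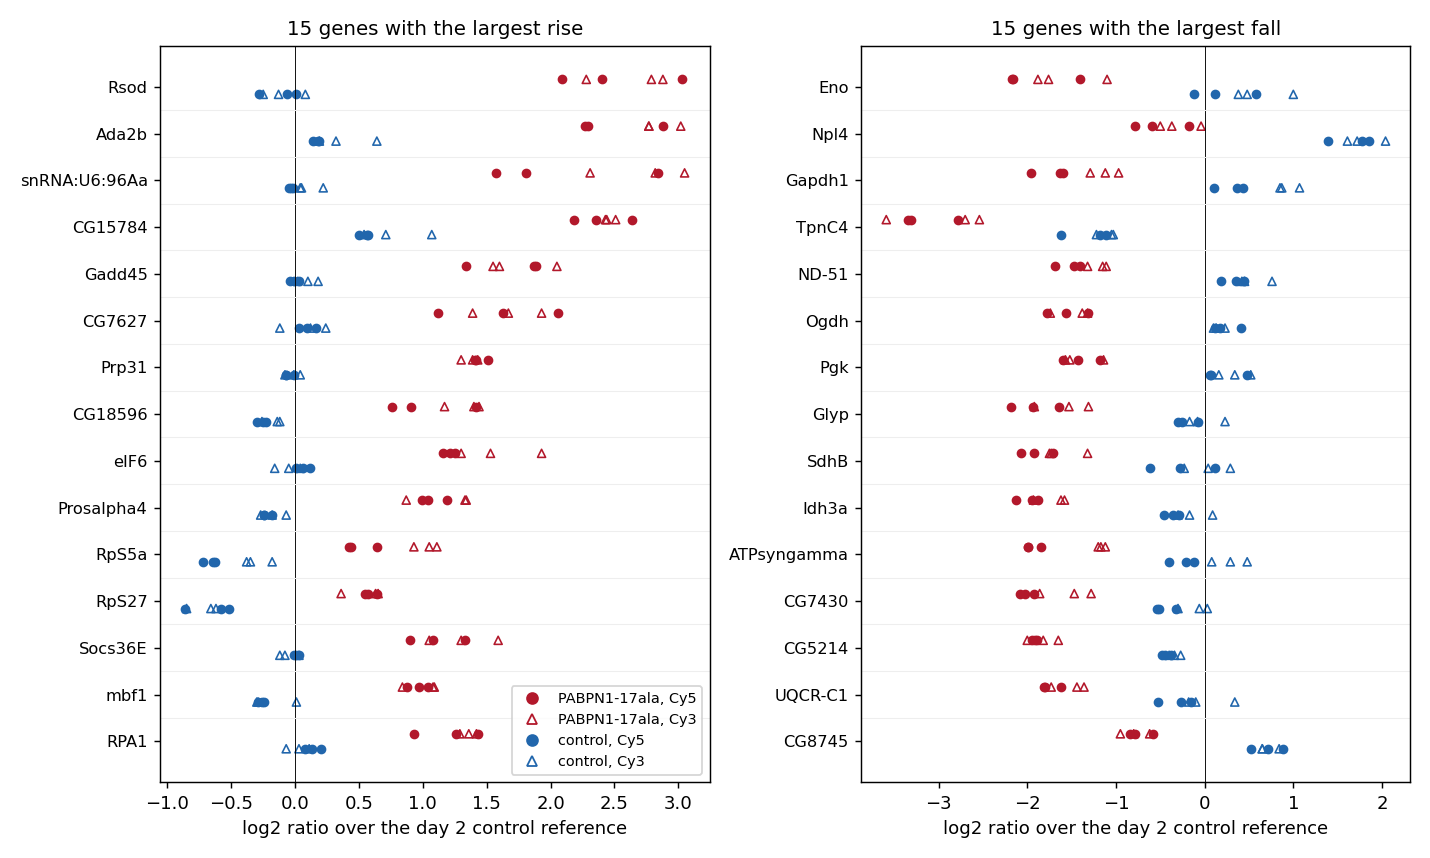
Log2 ratio over the common reference on each of the 12 arrays of day 6 for the 15 genes that rose most and the 15 that fell most, with PABPN1-17ala arrays in red and control arrays in blue, Cy5 as filled circles and Cy3 as open triangles. The genes were chosen under the condition that no PABPN1-17ala array overlaps the controls of its dye, which every called gene met.

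Subunits of the proteasome rose together. Of the 14 genes of the core, 7 rose and none fell, with a median log2 fold change of 0.76, and of the 19 genes of the regulatory particle, 9 rose and none fell, with a median of 0.55. Over all genes tested the median was -0.01 and 0.935% rose. The median log2 ratio of the 33 genes was 0.44, 0.33 and 0.48 on Cy5 arrays and 0.36, 0.57 and 0.57 on Cy3 arrays with PABPN1-17ala, against -0.12, -0.08 and -0.07 on Cy5 arrays and -0.10, -0.11 and -0.09 on Cy3 arrays of control flies. Every PABPN1-17ala array was thus above every control array.

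Prosalpha4 (CG3422), a subunit of the outer ring of the core, rose the most of them. It had log2 ratios of 1.04, 0.99, 1.19, 0.87, 1.33 and 1.34 on PABPN1-17ala replicates 1 to 6 and -0.24, -0.18, -0.24, -0.27, -0.18 and -0.07 on control replicates 1 to 6. The groups were separated by over 0.9, and the log2 fold change was 1.32 (SE 0.12, adjusted p = 5.28e-05 by limma). Prosbeta7 rose by 1.00 (adjusted p = 0.0129), Prosalpha1 by 0.93 (0.00948) and Prosbeta4 by 0.92 (0.00228), and in the regulatory particle the ATPase Rpt3 rose by 0.87 (0.00259) and the lid subunits Rpn5 by 0.78 (0.00563), Rpn9 by 0.77 (0.0299) and Rpn3 by 0.74 (0.0129). The measured values of the members were not alike. Prosalpha5, Prosbeta1, Prosbeta2 and Prosbeta6, picked after their values were seen, had log2 fold changes between -0.07 and 0.03, and Rpt5, Rpn1, Rpn2 and Rpn13 between -0.01 and 0.03. The 9 members with an absolute log2 fold change within 0.2 also varied less on the other days. Their median SD there was 0.21, against 0.28 for the other 24. Whether the probes of these 9 respond to their transcripts was not tested, so their transcripts are not shown to be unchanged. Of 14 testis paralogs of proteasome subunits, only Prosalpha1R was called, at 1.14 (adjusted p = 0.000672), and it is a near-identical copy of Prosalpha1, so its probe may read that gene; the list median was 0.00.

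Among 28 other genes of the ubiquitin system, 4 rose and 1 fell, with a median of 0.11. Over all genes tested, 0.935% rose and 0.667% fell. The proteasome-bound deubiquitinase Usp14 (CG5384) had log2 ratios of 0.66, 0.79, 0.99, 0.67, 0.88 and 1.18 with PABPN1-17ala and -0.38, -0.26, -0.33, -0.20, -0.15 and -0.08 in control flies. It rose 2.14-fold with no overlap (log2 fold change 1.10, SE 0.10, adjusted p = 3.44e-05 by limma). The polyubiquitin gene Ubi-p63E rose by 0.92 (adjusted p = 0.016), the ligase scaffold Cul3 by 0.53 (0.0377) and the shuttle factor Rad23, picked after its values were seen, by 0.52 (0.0112). Npl4 (CG4673), a cofactor that brings ubiquitinated proteins to the ATPase TER94, went the other way. Its log2 ratios were -0.59, -0.18, -0.78, -0.04, -0.37 and -0.50 with PABPN1-17ala and 1.85, 1.39, 1.77, 2.04, 1.72 and 1.61 in control flies. The control arrays were high, at over 2-fold above the reference of control day 2 RNA, and the PABPN1-17ala arrays lay below the reference. Npl4 fell 4.41-fold (log2 fold change -2.14, SE 0.23, adjusted p = 0.000515). For its partner Ufd1, which like TER94 was picked after its values were seen, the log2 fold change was 0.00 (adjusted p = 1), and for TER94 it was 0.33 (adjusted p = 0.196).

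**Figure D3:**
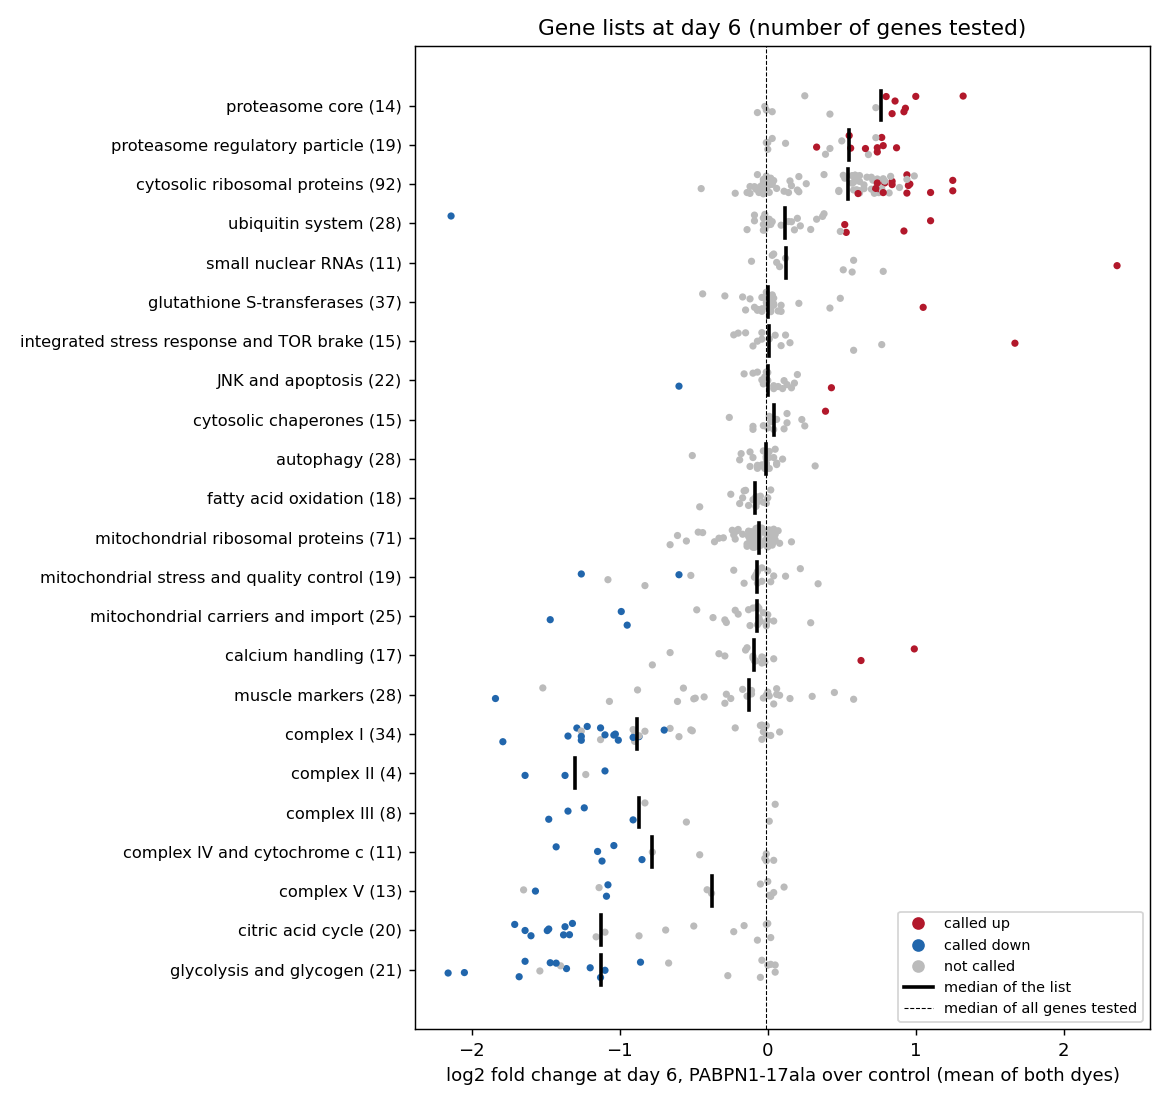
Log2 fold change of PABPN1-17ala over control at day 6 (horizontal axis) for each member of 23 gene lists, with genes that rose in red, genes that fell in blue, genes not called in grey, the list median as a black bar and the median of all genes as a dashed line. The proteasome lists have medians of 0.76 and 0.55, the citric acid cycle and glycolysis lists both have -1.13, and apart from complex II each of these lists holds members near 0. Whether the probes of those members respond to their transcripts was not tested.

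Nuclear genes of the respiratory chain moved in the opposite direction. Of 70 genes of complexes I to V with cytochrome c, 29 fell and none rose, with a median log2 fold change of -0.87, where 0.667% of all genes tested fell. The median log2 ratio of these genes was -0.97, -1.08, -1.08, -0.92, -0.92 and -1.09 on PABPN1-17ala replicates 1 to 6 and -0.22, -0.16, -0.07, -0.07, -0.06 and -0.05 on control replicates 1 to 6, without overlap. By complex, 14 of 34 genes of complex I fell (median -0.89), 3 of 4 of complex II (-1.30), 4 of 8 of complex III (-0.87), 5 of 11 of complex IV with cytochrome c (-0.78) and 3 of 13 of complex V (-0.38). Several of these genes were picked by the study from these arrays, so the count is no independent evidence of its direction. The 20 genes with an absolute log2 fold change within 0.2 had a median SD of 0.21 on the other days, against 0.49 for the other 50. Whether the probes of these 20 respond to their transcripts was not tested, so their transcripts are not shown to be unchanged.

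ND-51 (CG9140), the subunit of complex I that takes electrons from NADH, had log2 ratios of -1.41, -1.47, -1.69, -1.11, -1.15 and -1.32 with PABPN1-17ala and 0.44, 0.18, 0.35, 0.76, 0.42 and 0.45 in control flies. The control arrays were all above the reference and the PABPN1-17ala arrays all below it, and ND-51 fell 3.47-fold (log2 fold change -1.79, SE 0.11, adjusted p = 1.24e-06 by limma). ND-24 fell by 1.35, ND-42 by 1.29 and ND-B8 by 1.26 on the log2 scale. SdhB (CG3283), the iron-sulphur subunit of succinate dehydrogenase, had -1.71, -1.92, -2.07, -1.73, -1.32 and -1.75 against -0.62, -0.28, 0.12, -0.23, 0.29 and 0.04. It fell 3.11-fold without overlap (adjusted p = 0.000485), with SdhA at -1.37 (0.00173) and SdhC at -1.10 (0.0129), while SdhD at -1.23 was not called (0.0609).

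Cytochrome c, Cyt-c-p (CG17903), the electron carrier between complexes III and IV, had log2 ratios of -2.21, -2.22, -2.33, -1.75, -1.43 and -1.91 with PABPN1-17ala and -0.86, -0.76, -0.65, -0.24, -0.44 and -0.34 in control flies. It fell 2.69-fold (log2 fold change -1.43, SE 0.14, adjusted p = 5.28e-05 by limma), with both groups below the reference. The core subunit UQCR-C1 and the catalytic Cyt-c1 of complex III fell by 1.48 and 1.35, and COX4, COX5B and COX5A of complex IV by 1.15, 1.12 and 1.04. ATPsyngamma (CG7610), the rotating shaft of ATP synthase, had -1.99, -1.84, -1.99, -1.12, -1.20 and -1.17 against -0.12, -0.40, -0.21, 0.48, 0.08 and 0.29. Within each dye the groups were well apart, and the Cy5 arrays were lower than the Cy3 arrays in both. It fell 2.97-fold (adjusted p = 0.000506), ATPsynE fell by 1.09 and ATPsyndelta by 1.08, whereas, picked after their values were seen, the alpha subunit blw had -1.65 without being called (adjusted p = 0.0619) and ATPsynbeta had 0.02 (adjusted p = 1).

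Genes of the citric acid cycle, which hands electrons to the respiratory chain, also fell in part. Of 20 citric acid cycle and pyruvate dehydrogenase genes, 9 fell and none rose, with a median of -1.13, where 0.667% of all genes tested fell. This list shares SdhB with complex II, so its count of fallen genes overlaps with that of the respiratory chain. The list's median log2 ratio was -1.57 to -1.21 on the 6 PABPN1-17ala arrays and -0.39 to -0.02 on the 6 control arrays. Ogdh, the first enzyme of the 2-oxoglutarate dehydrogenase complex, fell by 1.71 (adjusted p = 0.0323), Idh3a of isocitrate dehydrogenase by 1.60 (0.0365), the dihydrolipoamide dehydrogenase CG7430 by 1.49 (0.000114) and the succinyltransferase CG5214 by 1.48 (1.49e-05). Of 18 fatty acid oxidation genes limma called 0 (1 at an unadjusted p below 0.05), and their median was -0.09.

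Of 21 genes of glycolysis and glycogen metabolism, 11 fell and none rose, with a median of -1.13, where 0.667% of all genes tested fell. The list's median log2 ratio was -1.14 to -0.86 on the PABPN1-17ala arrays and -0.01 to 0.10 on the control arrays. The enolase Eno (CG17654) had log2 ratios of -2.16, -1.41, -2.17, -1.10, -1.76 and -1.88 with PABPN1-17ala and 0.58, -0.12, 0.12, 1.00, 0.48 and 0.38 in control flies. The groups did not overlap, though each spread over about 1 log2 unit. Eno fell 4.46-fold (log2 fold change -2.16, SE 0.35, adjusted p = 0.0315 by limma), the largest fall on the arrays, and its adjusted p was 0.155 without PABPN1-17ala replicate 6.

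Gapdh1 (CG12055), glyceraldehyde-3-phosphate dehydrogenase, had -1.63, -1.60, -1.96, -1.29, -1.12 and -0.97 with PABPN1-17ala and 0.43, 0.11, 0.37, 0.87, 0.85 and 1.07 in control flies. It fell 4.13-fold (log2 fold change -2.05, SE 0.42, adjusted p = 0.0178 by limma), and the adjusted p reached 0.0783 without control replicate 6. For Gapdh2, the second gene of this enzyme, picked after its values were seen, the log2 fold change was 0.05 (adjusted p = 1). The phosphoglycerate kinase Pgk (CG3127) had -1.60, -1.18, -1.43, -1.14, -1.52 and -1.57 against 0.48, 0.06, 0.07, 0.52, 0.34 and 0.16, and fell 3.21-fold (adjusted p = 0.00901). Glycogen phosphorylase, Glyp, fell by 1.64 on the log2 scale (adjusted p = 0.037). In this list, the 6 genes with an absolute log2 fold change within 0.2, such as Gapdh2, varied little on the other days. Their median SD there was 0.16, against 0.84 for the other 15. Whether their probes respond to the transcripts was not tested.

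**Figure D4:**
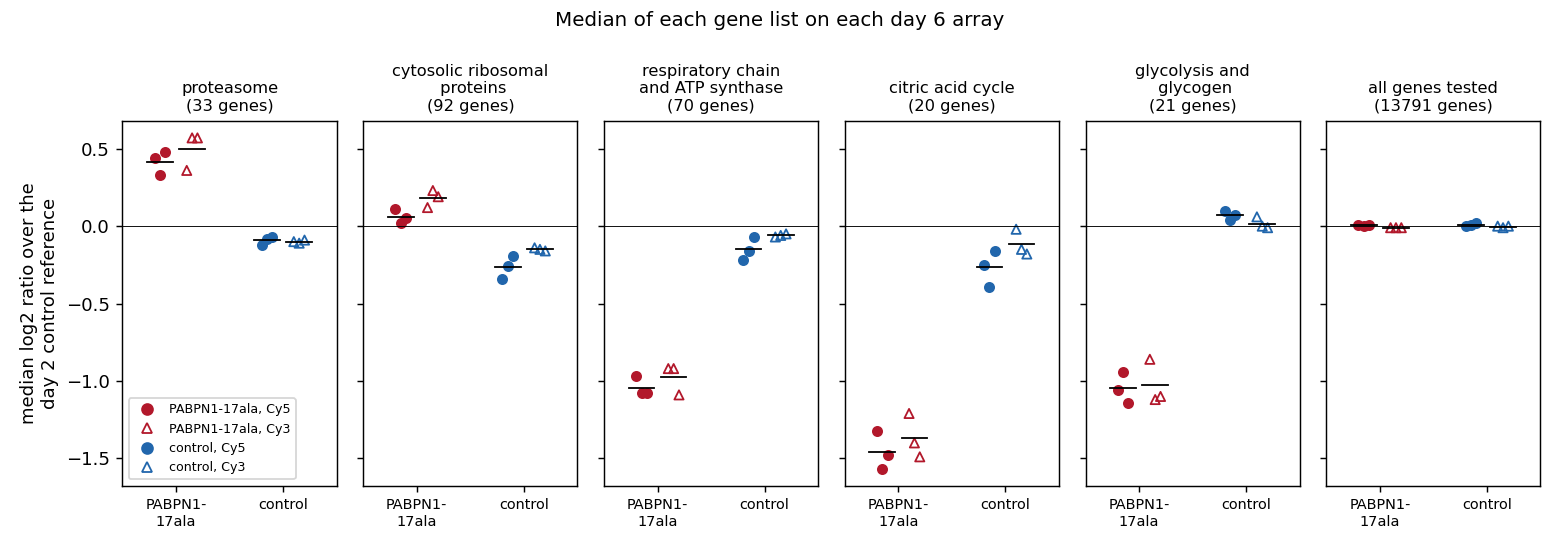
Median log2 ratio over the common reference (vertical axis) of 5 gene lists and of all genes tested on the 12 arrays of day 6, with PABPN1-17ala arrays in red and control arrays in blue, Cy5 as filled circles and Cy3 as open triangles, and the mean of each dye as a line. The proteasome list lies at 0.33 to 0.57 with PABPN1-17ala and at -0.12 to -0.07 in control flies, and the respiratory chain list at -1.09 to -0.92 and -0.22 to -0.05.

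Cytosolic ribosomal protein genes shifted upwards. Of 92 genes, 15 rose and none fell, with a median of 0.54, where 0.935% of all genes tested rose. All 6 PABPN1-17ala arrays lay above the controls for 54 of the 92, against 5.78% of all genes tested. The 35 genes with an absolute log2 fold change within 0.2 had a median SD of 0.19 on the other days, against 0.64 for the other 57. Whether the probes of these 35 respond to their transcripts was not tested. The median log2 ratio of the 92 genes was 0.11, 0.02, 0.05, 0.12, 0.23 and 0.19 on PABPN1-17ala replicates 1 to 6 and -0.34, -0.26, -0.19, -0.14, -0.15 and -0.16 on control replicates 1 to 6. RpS5a (CG8922), a protein of the small subunit, had 0.42, 0.64, 0.44, 1.11, 1.05 and 0.93 against -0.63, -0.64, -0.72, -0.18, -0.38 and -0.35. It rose 2.38-fold without overlap (log2 fold change 1.25, SE 0.18, adjusted p = 0.00449 by limma), RpS27 rose by 1.25 (adjusted p = 0.0142, and 0.0713 without PABPN1-17ala replicate 6), RpL4 by 1.10 (0.00414) and RpS19a by 0.96 (0.00993). RpL32, a common normalization gene, had -0.01 (adjusted p = 1). Of 71 mitochondrial ribosomal protein genes, limma called 0 (2 at an unadjusted p below 0.05), and the median was -0.06.

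Other mitochondrial genes gave a mixed picture, where 0.667% of all genes tested fell. Of 25 genes of carriers and import, 3 fell: the adenine nucleotide translocase sesB, which exports ATP from mitochondria, by 1.47 (adjusted p = 9.4e-05), the outer membrane channel porin by 0.99 (0.00352) and the pyruvate carrier Mpc1 by 0.95 (0.00174). sesB had log2 ratios of -2.27, -2.10, -2.51, -0.86, -0.89 and -0.90 with PABPN1-17ala and -0.59, -0.71, -0.47, 0.45, 0.25 and 0.35 in control flies. In both groups the Cy5 arrays were lower than the Cy3 arrays, while the difference between groups had the same direction on both dyes. Of 19 genes of mitochondrial stress and quality control, the kinase Pink1, which marks damaged mitochondria, fell by 1.26 (0.00141) and the transport adaptor Miro by 0.60 (0.0132). Of 21 genes of proline, glutamate and other amino acid metabolism, CG8745, of the aminotransferase family, fell by 1.47 (1.49e-05), Alas, the first enzyme of heme synthesis, by 1.25 (5.28e-05) and the proline dehydrogenase slgA by 0.62 (0.0411).

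Of 28 muscle markers tested, 1 fell and none rose, with a median of -0.12, where 0.667% of all genes tested fell. On both dyes 19 of the 28 markers were below 0, against 33% of all genes tested. For 8 of the 28, all 6 PABPN1-17ala arrays lay below the controls, against 4.61% of all genes. The median log2 ratio was -0.63 to -0.06 on PABPN1-17ala arrays and -0.35 to 0.00 on control arrays, which overlap. TpnC4 (CG12408), a troponin C of flight muscle, had log2 ratios of -2.78, -3.35, -3.31, -2.70, -2.54 and -3.59 with PABPN1-17ala and -1.62, -1.11, -1.18, -1.22, -1.03 and -1.05 in control flies. Both groups were well below the day 2 reference, and TpnC4 fell 3.58-fold (log2 fold change -1.84, SE 0.21, adjusted p = 0.000309 by limma). The flight muscle filament protein fln had -1.52 (adjusted p = 0.0876), the giant kinase bt, picked after its values were seen, -1.07 (0.696) and Mhc, the myosin heavy chain whose promoter drives Gal4, -0.43 (1), none of them called. Because the values are ratios to thorax RNA, they hold no level against which the tissue label could be checked. Limma called 0 of the markers of neurons (10 tested), fat body and yolk (10), hemocytes (10), gut proteases (9), cuticle (10) and germline (9), with 1 of them, in the hemocyte list, at an unadjusted p below 0.05, and the largest absolute log2 fold change among them was that of Mal-A1 (-0.66).

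Stress lists held few called genes, where 0.935% of all genes tested rose and 0.667% fell. The calcineurin subunits CanA1 and CanB2, a calcium-activated phosphatase, rose by 0.99 (adjusted p = 0.000271) and 0.63 (0.0144) among 17 calcium genes. GstD1 (CG10045), a glutathione S-transferase, had log2 ratios of 1.18, 1.34, 1.23, 1.37, 1.63 and 1.64 with PABPN1-17ala and 0.16, 0.34, 0.44, 0.09, 0.53 and 0.53 in control flies. It rose 2.07-fold without overlap (adjusted p = 0.0215 by limma, and 0.113 without control replicate 1), the only one of 37 such genes. The direction of the log ratios was read from GstD1, so the sign of its rise is no separate result. Gadd45 was the only one called of 15 genes of the integrated stress response and TOR brake, where the translation inhibitor Thor had 0.77 (adjusted p = 0.182). The cell death inducer rpr rose by 0.43 (0.0165) and the inhibitor of apoptosis Diap2 fell by 0.60 (0.0162) among 22 genes, the co-chaperone stv rose by 0.39 (0.0112) among 15, and the small heat shock protein CG4461 fell by 1.01 (0.00352) among 9, where l(2)efl had 0.75 (0.244).

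The genes of poly(A) tail metabolism were not called. Limma called 0 of 17 cleavage and polyadenylation genes and 0 of 16 deadenylation genes, with 1 in each at an unadjusted p below 0.05 and medians of 0.03 and -0.01. Pabp2, the fly's own PABPN1, had 0.33 as its log2 fold change (adjusted p = 0.426 by limma). All 6 of its PABPN1-17ala arrays lay above the controls of their dye, as for 5.78% of all genes tested. The RNA-binding repressors smg and pum had 0.02 and 0.00, the deadenylase twin -0.02 and the poly(A) polymerase hrg 0.02. Whether the probes of these genes respond to their transcripts was not tested, so their transcripts are not shown to be unchanged. Of the genes named in the study 31 were tested, of which GstD1 rose and SdhB, SdhA, ND-24, ND-42, ND-B8 and ND-23 fell. The study picked some of this list from these arrays, so the count is no independent evidence of its direction. GstD1 and respiratory chain genes also served to read the direction of the log ratios. Others it named for their function, for normalization or as respiratory chain genes that its arrays had missed. Not called were ND-30 (-1.13), ND-75 (-0.90), RFeSP (-0.55), Cpr100A (-0.32), ewg (-0.10), Vha16-1 (-0.09), ATPsynC (-0.05), srl (-0.01), alpha-Est1 (0.00), ATPsynO (0.01), ERR (0.02), ATPsynB (0.04), Ets97D (0.10), TpnC41C (0.15), RpS2 (0.38) and RpS6 (0.75), beside those given above, all as log2 fold changes. ER stress, antioxidant, immune, nucleolar, small nucleolar RNA, transfer RNA, autophagy, circadian clock and CCT chaperonin genes had no called member in limma, and 0 to 3 per list had an unadjusted p below 0.05.

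The genotype effect at day 6 was compared with that at the other days by a test of the difference itself. Each day has its own control arrays, and all share the common reference. Of 13791 genes, 33 (0.239%) differed between days 6 and 2, 22 with a higher and 11 with a lower log2 fold change at day 6, and 292 had an unadjusted p below 0.05. All 22 rose at day 6, and 3 of the 11 fell. Left without 1 array of day 6, the test called 14 to 35 genes, with 14 without control replicate 4 or 6. Without PABPN1-17ala replicate 1 of day 2, for which one label names the control genotype, it called 45. Ada2b had log2 fold changes of 0.62, 2.39 and 0.40 at days 2, 6 and 11, with a difference of 1.77 between days 6 and 2 (SE 0.20, adjusted p = 0.00104 by limma).

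Proteasome genes stood among these differences. The list median was -0.09, 0.56 and 0.25 at days 2, 6 and 11, when 0, 16 and 4 of 33 genes rose, against 0.667%, 0.935% and 0.754% of all genes tested. Of the 33, 10 had a higher log2 fold change at day 6 than at day 2 (21 at an unadjusted p below 0.05), and by limma 0 differed between days 6 and 11 (7 unadjusted). Prosalpha4 had -0.07, 1.32 and 0.87 at these days, and its difference from day 2 was 1.40 (SE 0.17, adjusted p = 0.00676 by limma). The differences were 1.28 for Prosalpha1 (0.0319) and 1.10 for Prosbeta4 (0.0439), and outside this list 1.52 for Prosalpha1R (0.00889) and 1.03 for Usp14 (0.00676).

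The respiratory chain list had medians of -0.51, -0.87 and -0.06 at days 2, 6 and 11, with 8, 29 and 11 genes fallen, against 0.283%, 0.667% and 0.428% of all genes tested. Of its 70 genes, only Cyt-c-p and ND-51 were lower at day 6 than at day 2 in the test of the difference, by 1.21 (adjusted p = 0.0202) and 1.02 (0.0391) on the log2 scale, and by limma 0 differed between days 6 and 11 (17 at an unadjusted p below 0.05). The genes of largest negative difference were CG12105, CG15617 and CG12290, which had log2 fold changes of 2.25, 3.09 and 2.89 at day 2 and of -0.84, 0.00 and 0.27 at day 6. Cytosolic ribosomal protein genes had medians of 0.01, 0.54 and 0.68, and limma found 0 genes to differ between day 6 and day 2 or 11 (21 and 2 at an unadjusted p below 0.05).

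Between days 6 and 11, 6 genes (0.0435%) differed, all higher at day 6, and 388 had an unadjusted p below 0.05. The count was 2 to 8 without 1 array, and 2 without any one of PABPN1-17ala replicates 2, 3, 5 and 6 and control replicates 2, 4, 5 and 6. Rsod had log2 fold changes of 2.47, 2.68 and 0.33 at days 2, 6 and 11, and its difference between days 6 and 11 was 2.35 (SE 0.26, adjusted p = 0.00279 by limma). Ada2b differed by 1.99 (0.00185) and vri, a transcription factor of the circadian clock that was not called at day 6 (0.23), by 1.67 (0.0461). Of the 129 genes that rose at day 6, 25 also rose at day 2, when 92 genes rose in all, 31 at day 11, when 104 rose, and 79 at neither. Both dyes put 93 of these 129 above 0 at day 2 and 98 at day 11, with medians of 0.14 and 0.31. Of the 92 that fell, 24 also fell at day 2, when 39 genes fell in all, 30 at day 11, when 59 fell, and 50 at neither. Both dyes put 87 of these 92 below 0 at day 2 and 86 at day 11, with medians of -0.66 and -0.74, so a gene called at day 6 alone is not shown to be particular to that day. Over all genes tested, the medians were -0.01 at day 2 and 0.03 at day 11. At day 6, both dyes put 27.1% of all genes above 0 and 33% below 0. These shares were not computed for the other days.

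**Figure D5:**
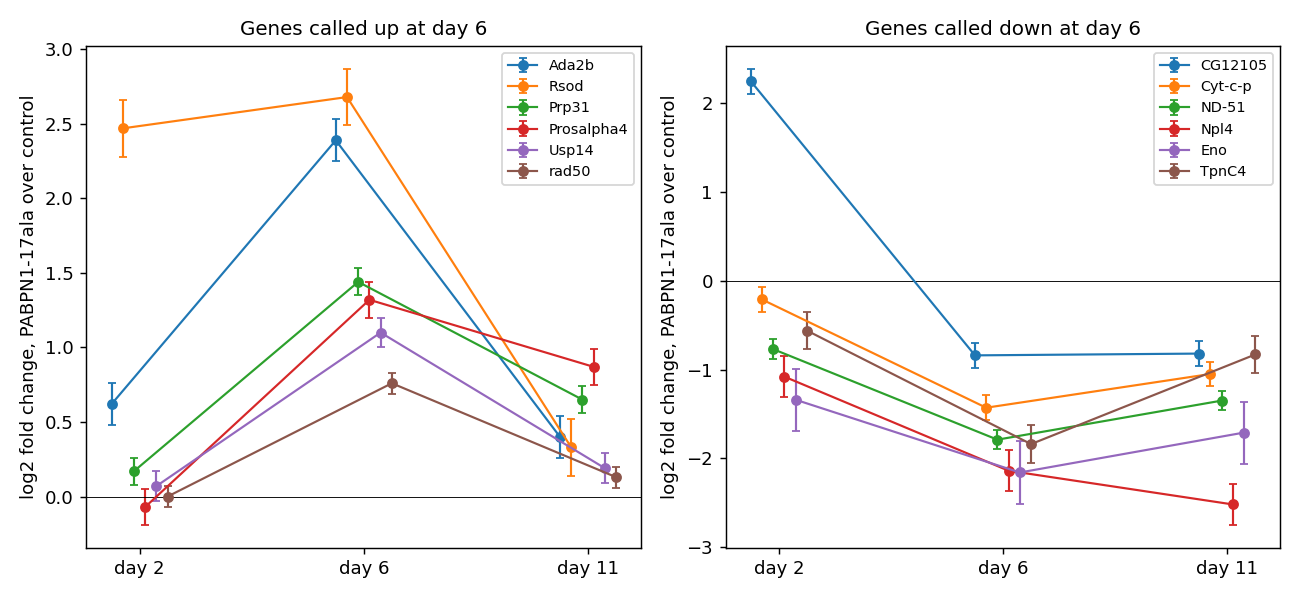
Log2 fold change of PABPN1-17ala over control (vertical axis) at days 2, 6 and 11 for 6 genes that rose at day 6 (left) and 6 that fell (right), with error bars for the SE averaged over the dyes. Ada2b stands at 0.62, 2.39 and 0.40, and CG12105, with 2.25 at day 2, lies below 0 at day 6.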

How the data were processed

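RNA was extracted from thoraxes, amplified and labelled, and hybridized with a common reference on 2-colour arrays, per the labels. The authors deposited 1 normalized log ratio for each gene and array, read here as log2 of sample over reference; the background correction, normalization and log base are not given in the sources used here, and signal intensities were not used. The table has 13843 lines, 23 for spots of no fly gene, and 13820 with a gene identifier, of which 12047 were matched to current symbols through locus tags and 1153 through synonyms, while 620 kept their identifier. The sources do not say which arrays of opposite dye came from the same extract. The number of extracts, made in triplicate, limits the precision.

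A gene was tested where every condition had at least 2 of its 3 arrays with values on either dye, which left 13791 genes and dropped 29. Limma 3.58.1 (R 4.3.3) estimated 6 condition means from the 18 arrays of a dye, separately for Cy5 and Cy3. Fold changes were averaged over the dyes, the larger p was kept, or 1 where signs differed, and p-values were adjusted by Benjamini-Hochberg over all 13791 genes, with calls below 0.05. PABPN1-17ala was set against control at day 6, and this effect against that at days 2 and 11. The labels of PABPN1-17ala day 2 replicate 1 disagree, 1 of them naming Mhc-Gal4/+. This array entered the day 2 values and, through the shared variance of the Cy5 arrays, the other tests, and it was left out in an alternative chosen after seeing the data. The procedure was tested on simulated data. Figures were drawn with matplotlib 3.10.9.

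Genes were named by rule: the 15 largest rises and falls with all 6 arrays outside the controls of their dye, up to 4 called genes of each list or, with fewer than 2 called, 2 of its largest changes, the genes named in the study, and the 3 largest differences between days in each direction. Others are marked as picked after their values were seen. The gene lists, the tests and the comparison itself were chosen with earlier results of these data known. Lists are described by counts and medians and were not tested. Promoter motifs were not analysed here. The alternatives were each dye alone, a single fit, means of assumed pairs, a replicate block, only the conditions compared and ANOVA without moderation. Others were centring, quantile normalization, filters on missing values and spread, and leaving out each of the 12 arrays of day 6. ANOVA without moderation kept the fit on each dye and the larger p. It was not a rerun of the study's ANOVA of genotype and time.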

Additional observations from a re-analysis of the deposited data

Results flagged for a closer look

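In 9 of 148 groups of 6 arrays, 1 array stood far from the other 5. Among 6 independent values of a normal distribution, chance gives this in about 1 in 20 groups. The groups here pool both dyes, so that rate need not hold. With PABPN1-17ala, that array had a log2 ratio of 0.36 for RpS27 (others 0.55 to 0.65), 0.93 for RPA1 (1.26 to 1.43) and -0.07 for CG4461 (-0.43 to -0.32). Among control arrays it had 0.64 for Ada2b (others 0.14 to 0.32), 0.22 for snRNA:U6:96Aa (-0.05 to 0.05), 1.07 for CG15784 (0.50 to 0.71), 0.01 for mbf1 (-0.30 to -0.24), -1.62 for TpnC4 (-1.22 to -1.03) and -0.72 for ATPsynE (-0.32 to -0.11).

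The genotype effect differed between day 6 and another day for several named genes, by a test of the difference in limma. Day 6 was above day 2 by 1.77 for Ada2b, 1.52 for Prosalpha1R, 1.40 for Prosalpha4, 1.28 for Prosalpha1, 1.28 for Prp31, 1.10 for Prosbeta4, 1.06 for Rpt3, 1.03 for Usp14 and 0.90 for Rpn5 on the log2 scale. The difference was -3.09 for CG12105, -1.21 for Cyt-c-p and -1.02 for ND-51. Against day 11 it was 2.35 for Rsod and 1.99 for Ada2b.

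A spot for the coding sequence of Gal4, the yeast driver that both genotypes carry, is not a fly gene and entered no comparison. Its mean log2 ratio was -1 on Cy5 and -0.95 on Cy3 arrays with PABPN1-17ala and -1.33 and -1.48 in control flies, a difference of 0.43 (unadjusted p = 0.205, the larger of both dyes in limma), with all 6 PABPN1-17ala arrays above the controls of their dye.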

How the results depend on the processing

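No called gene changed sign under any of the 24 alternatives in which it was tested (215 to 221 of the 221 genes), and 150 (ANOVA without moderation) to 221 of them were called again in the same direction. On each dye alone, the sign and the call of all 221 were fixed in advance. A call required the same sign on both dyes and kept the larger p. ANOVA without moderation left the fold changes as they were, so it could not change a sign. For genes with values on all arrays, the same holds for a single fit, assumed pairs, the replicate block and only the conditions compared. It also holds for the filters on missing values and spread and for leaving out a day 2 array. Leaving out 1 array of day 6 could not change a sign either. All 6 PABPN1-17ala arrays of each called gene lay outside the controls of their dye. For such genes, only centring and quantile normalization could have changed a sign, and neither did. The 92 genes that fell became 203 on Cy5 arrays alone, 163 on Cy3 arrays alone, 311 when all arrays shared one fit with a dye term, 299 with means of assumed pairs of arrays, 215 with only the conditions compared and 54 by ANOVA without moderation, and 56 to 81 without 1 array. The 129 genes that rose became 261 on Cy3 arrays alone, 406 in one shared fit, 378 with assumed pairs, 267 with only the conditions compared and 229 after quantile normalization, and 89 to 112 without 1 array. A shared fit, assumed pairs and single dyes do not require both dyes to agree, and a shared fit counts both dyes as separate replicates. The 33 genes that differed between days 6 and 2 became 96 on Cy5 arrays alone, 88 on Cy3 arrays alone, 235 in one shared fit, 201 with assumed pairs, 11 by ANOVA and 60 after quantile normalization, and 14 to 35 without 1 array of day 6. The 6 genes that differed between days 6 and 11 became 306, 57, 408 and 380 under the first 4 of these settings, 2 by ANOVA, 26 after quantile normalization, 3 with only the conditions compared and 3 without genes of low spread, and 2 to 8 without 1 array. The cause of the moved counts was not tested.

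Without PABPN1-17ala replicate 1 of day 2, an alternative chosen after seeing the data, 93 genes fell, 141 rose, 45 differed between days 6 and 2 and 7 between days 6 and 11, and 217 of the 221 called genes were called again. At day 2 itself 121 genes then rose and 50 fell, against 92 and 39 with all arrays.

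With the replicate number as a block (replicate block), 98 genes fell, 120 rose, 25 differed between days 6 and 2 and 2 between days 6 and 11. Same-numbered arrays of both genotypes deviated together with r = -0.09 to 0.17, so the numbers were not taken to pair arrays.

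Of 74 named called genes, 48 were called whichever of the 12 arrays was left out. UQCR-6.4 lost its call whichever array was left out (adjusted p 0.0551 to 0.258) and UQCR-14 without 11 of 12 (up to 0.173). slgA, Gapdh1, Ogdh, Glyp, Idh3a, GstD1, Eno, Cul3 and CanB2 lost it without 5 to 9 arrays, and Rpn9, Ubi-p63E, COX4, ND-B8, Diap2, rpr, RpS27, Prosbeta7, SdhC, Miro, stv, RpS19a, Prosalpha1, Rpn3 and ATPsynE without 1 to 4. After quantile normalization the median of the respiratory chain genes was -0.57 and that of the citric acid cycle genes -0.79.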

Other observations

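Of the 221 called genes, 119 were in no list, and those below are named after their values were seen. They were picked among called genes only, and uncalled genes of the same functions were not counted. Over all genes tested, 0.935% rose and 0.667% fell. The partners rad50 and mre11, which sense DNA breaks, rose by 0.76 (adjusted p = 6.21e-05) and 0.57 (0.000418) on the log2 scale, the Ku70 homolog Irbp by 0.73 (0.000418), the ribonucleotide reductase subunit RnrL by 0.74 (0.0129), the clamp loader RfC4 by 0.44 (0.032) and DNAlig3 by 0.43 (0.00901), all by limma. The transcription factor Xrp1 and its dimer partner Irbp18 rose by 0.46 (0.016) and 0.65 (0.00676). In the test of the difference, rad50, Irbp and mre11 were higher at day 6 than at day 2, by 0.77 (0.00676), 0.67 (0.0315) and 0.56 (0.0414), and rad50 than at day 11, by 0.63 (0.0461), while the others did not pass. Other genes that rose were Polr2A and Polr2B, subunits of RNA polymerase II, by 0.87 (0.0022) and 0.37 (0.0292), the mRNA export factors Hel25E and Ref1 by 0.93 (0.00168) and 0.88 (0.000351), the RNA ligase RtcB by 1.07 (0.00112) and La, which binds the ends of RNA polymerase III transcripts, by 1.03 (0.00734). The integrin linker rhea fell by 1.16 (0.0129) and CAP by 1.04 (0.0299), and the iron-sulphur scaffold IscU fell by 1.17 (0.00948).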
